A study of Mus musculus with 24 samples.

Results

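The 8 interferon regulatory factor (IRF) genes described here, Irf1, Irf2, Irf3, Irf4, Irf5, Irf7, Irf8 and Irf9, were taken by symbol from a table of 35770 gene names, without use of any measured value. All 8 were among the 13661 genes that passed the filter on low values and were tested. Their levels are given in TPM, an abundance unit scaled by transcript length. RNA was measured in primary bone marrow-derived macrophages (BMDMs) of C57BL/6 mice. In every group they had been grown in macrophage colony-stimulating factor (M-CSF, 20 ng/mL) before treatment. Whether the treatment medium held M-CSF is not stated. Cells were treated for 24 h in control media or in 75% conditioned media (CM) that LL2 mouse lung cancer cells had conditioned for 48 h, together with vehicle or with 100 nM CDDO-Me, a synthetic triterpenoid that activates the transcription factor NRF2. The cancer cells were wild type (WT), KEAP1 knockout (KO), which lacks the protein that holds NRF2 down, or NRF2 KO, so that the deletions lay in the cancer cells that made the CM and not in the macrophages. The KO lines were made with CRISPR plasmids and each genotype was given as a single line, so that genotype and line cannot be told apart. With or without CDDO-Me, the 4 media thus made 8 groups of 3 libraries, named here by medium and treatment (media/vehicle, WT CM/CDDO-Me and so on). The study called the libraries of a group independent samples without saying whether they came from separate cultures, animals or batches of CM, and the p-values therefore measure the spread between these libraries, which may be technical.

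IRFs share a DNA-binding domain that reads repeats of the bases GAAA, the core of the interferon-stimulated response element, and they differ in how they are switched on. IRF3, IRF5 and IRF7 wait in the cytosol until kinases below the nucleic acid sensors and Toll-like receptors phosphorylate them, and IRF9 is the DNA-binding part of the ISGF3 complex, which acts below the type I interferon receptor. IRF1 and IRF8 are regulated mostly by how much of them is made, with IRF1 a classical target of interferon gamma, IRF2 its counterpart on the same sites, IRF8 a lineage factor of monocytes and dendritic cells, and IRF4 a factor of alternatively activated macrophages.

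All TPM values are as the authors deposited them, with total TPM per library between 999365 and 999801. The totals are set by the unit and the methods state only an average sequencing depth, so the depth of each library is unknown. No library duplicated another. Among the 24 libraries, the 2 NRF2 KO CM libraries numbered 3 stood apart: they listed 15702 to 16299 genes above 0, against 17817 to 18993 in the other 22. Quoted IRF fold changes whose call changed without them are given both ways. The macrophage marker genes summed to 15412 to 39007 TPM in every library, and lymphocyte markers to at most 2.74 TPM and epithelial markers to at most 9.23 TPM. Fibroblast markers were present and lay lowest with CDDO-Me in CM, where they summed to 320 to 859 TPM in WT CM and 279 to 1131 TPM in KEAP1 KO CM, against 659 to 3196 TPM elsewhere. In such bulk RNA, fewer cells of a type and less RNA per cell cannot be told apart, and the part of these cells in the IRF values was not tested. NRF2 target genes rose with CDDO-Me in all 4 media, with 8 to 10 of the 10 tested called higher in each, and the quinone reductase gene Nqo1 rose by 3.67 to 5.35 on the log2 scale. Over all tested genes, 13.9% were called higher in WT CM and 14.5% in KEAP1 KO CM. In control media 6.01% and in NRF2 KO CM 9.77% were called in either direction.

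The promoters of the 4 IRF genes whose levels moved most are shown so that the letters near their starts can be read beside the values. Windows of 250 bases before the start of the Ensembl canonical transcript were read from the GRCm39 genome with GENCODE vM39 starts. Bases that lie inside another annotated transcript of the same gene were left off, which removed 29 bases for Irf1 and 1 base for Irf8. The windows are chr11:53660591-53660811 on the plus strand for Irf1, chr13:30932959-30933208 on the plus strand for Irf4, chr7:140846399-140846648 on the minus strand for Irf7 and chr8:121462847-121463095 on the plus strand for Irf8, each written 5′ to 3′ along its gene. Capitals mark matches to any of 4 motifs searched on both strands.
Irf1: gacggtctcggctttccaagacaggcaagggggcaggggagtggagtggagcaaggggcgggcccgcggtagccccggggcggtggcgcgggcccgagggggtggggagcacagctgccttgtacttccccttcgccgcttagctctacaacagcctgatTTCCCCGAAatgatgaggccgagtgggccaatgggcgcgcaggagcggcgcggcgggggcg
Irf4: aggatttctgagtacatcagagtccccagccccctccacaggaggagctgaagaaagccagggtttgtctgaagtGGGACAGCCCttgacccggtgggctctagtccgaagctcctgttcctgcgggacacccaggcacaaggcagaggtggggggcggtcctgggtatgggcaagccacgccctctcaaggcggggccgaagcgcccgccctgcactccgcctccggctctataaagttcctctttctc
Irf7: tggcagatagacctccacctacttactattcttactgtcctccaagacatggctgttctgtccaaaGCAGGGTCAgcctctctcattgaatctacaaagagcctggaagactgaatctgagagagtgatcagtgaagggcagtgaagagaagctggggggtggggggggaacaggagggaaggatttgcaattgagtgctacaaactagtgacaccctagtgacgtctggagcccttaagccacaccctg
Irf8: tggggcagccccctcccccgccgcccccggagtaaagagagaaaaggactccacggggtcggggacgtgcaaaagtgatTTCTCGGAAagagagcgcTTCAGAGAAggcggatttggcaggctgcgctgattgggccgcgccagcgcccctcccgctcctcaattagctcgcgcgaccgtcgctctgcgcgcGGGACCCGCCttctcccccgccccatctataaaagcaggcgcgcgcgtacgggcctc

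The first motif, the gamma-activated sequence through which interferon gamma acts (TTCNNNGAA, which is its own reverse complement), matched once in Irf1, 90 to 82 bases before the start, and at 2 places in Irf8, 171 to 163 and 153 to 145 bases before it. It was found in 7.7% of 21770 protein-coding promoters of the same length. The interferon-stimulated response element (GAAANNGAAA or TTTCNNTTTC, in 3.32% of promoters) matched in none of the 4 windows, and among all members it matched only in Irf2, which also held a gamma-activated sequence. An antioxidant response element core, the kind of sequence NRF2 binds (TGACNNNGC or GCNNNGTCA, in 9.69% of promoters), matched in Irf7, 184 to 176 bases before the start. An NF-kB motif (GGGANNNNCC or GGNNNNTCCC, in 18.2% of promoters) matched in Irf4, 175 to 166 bases before the start, in Irf8, 58 to 49 bases before it, in Irf3, and in the bases left off the Irf1 window. No motif matched in Irf5 or Irf9. A match is a description of the letters and not a binding site, and a window without a match says only that these letters are not in it.

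In media/vehicle BMDMs, TPM, which are scaled by transcript length, ordered the IRF genes from Irf5 (195 ± 12.0 TPM, SD, n = 3) and Irf8 (151 ± 8.54 TPM) through Irf3 (94.9 ± 11.0 TPM), Irf2 (55.7 ± 1.34 TPM), Irf1 (49.7 ± 3.96 TPM) and Irf9 (28.6 ± 1.80 TPM) to Irf7 (5.73 ± 0.921 TPM) and Irf4 (0.989 ± 0.231 TPM). Together the IRF genes summed to 582 ± 18.6 TPM in that group. The sum was 2049 ± 107 TPM in WT CM/CDDO-Me and 1942 ± 96.1 TPM in KEAP1 KO CM/CDDO-Me BMDMs, and 496.5 ± 99.7 to 576 ± 11.7 TPM in the other 5 groups. The lowest of these was NRF2 KO CM/vehicle, with 554 TPM over the 2 libraries other than replicate 3. The makeup of the pool differed as well. Irf1 was 8.55% of the sum in media/vehicle BMDMs, 14.4% with WT CM and 45.4% with WT CM and CDDO-Me, while Irf3 was 16.3% in media/vehicle and 4.05% in WT CM/CDDO-Me BMDMs. These sums and shares are descriptions and were not tested.

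**Figure D1:**
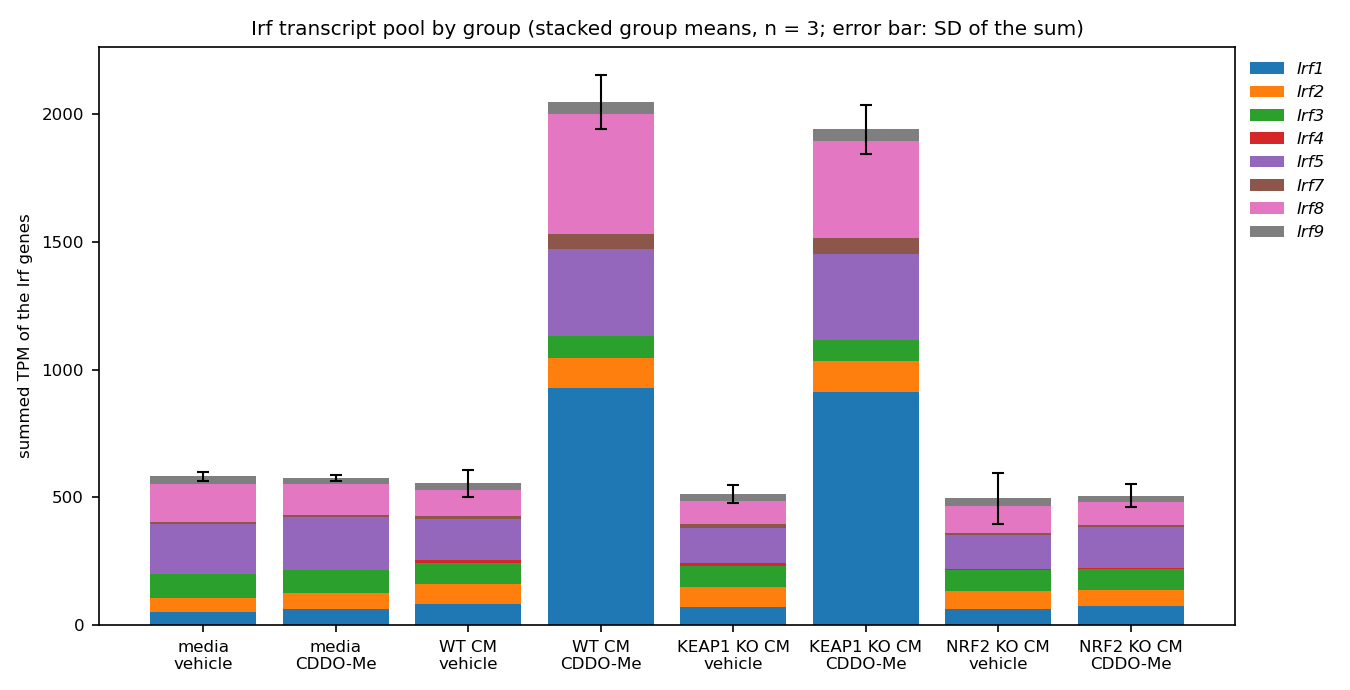
Summed TPM of the IRF genes in each of the 8 groups (bars, stacked group means of 3 libraries; error bars, SD of the sum). The CDDO-Me bars of WT CM and of KEAP1 KO CM stand at 2049 and 1942 TPM, and Irf1 makes up 45.4% and 46.9% of them.

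CDDO-Me was compared with vehicle in each medium to ask how its effect on the macrophages depends on what cancer cells release. The 8 tested IRF genes behaved alike in WT and KEAP1 KO CM: Irf1, Irf2, Irf5, Irf7, Irf8 and Irf9 rose, Irf4 fell and Irf3 did not pass the test. In control media and in NRF2 KO CM, 0 of the 8 passed by limma, with 1 of 8 (Irf9) and 0 of 8 at an unadjusted p under 0.05. In WT CM, 13.9% of all tested genes were called higher and 13.9% lower with CDDO-Me by limma (adjusted p under 0.05), and in KEAP1 KO CM 14.5% and 14.2%. The median log2 fold change of the IRF genes was 1.02 in WT CM and 1.13 in KEAP1 KO CM, beside −0.03 and −0.02 over all tested genes. In deposited TPM, the libraries of the 2 treatments did not overlap for 7 of 8 IRF genes in WT CM, where 53.5% of all tested genes did not overlap, and for the same 7 in KEAP1 KO CM, where 54.1% did not. In control media, limma called 6.01% of all tested genes, and with NRF2 KO CM 9.77%, with IRF medians of −0.06 and −0.14. In control media, a replicate block raised the genes called from 821 to 1466. Irf8 and Irf9 did not overlap between the treatments in control media, where 31.5% of all tested genes did not. Fold changes are on the log2(TPM + 1) scale after scaling between libraries, which understates the change of low genes such as Irf4.

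**Figure D2:**
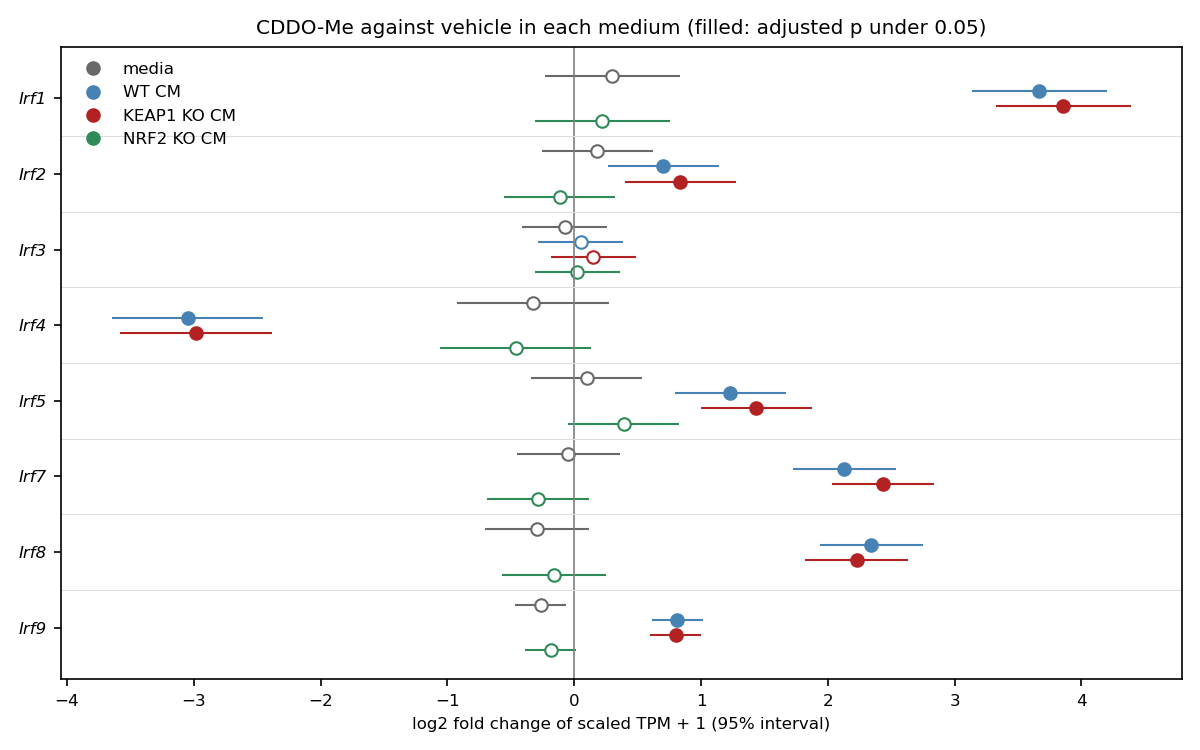
Log2 fold change of scaled TPM + 1 with CDDO-Me against vehicle (horizontal axis) for the 8 tested IRF genes (vertical axis) in the 4 media, with 95% intervals; filled points passed adjusted p under 0.05 by limma. Points for WT CM and KEAP1 KO CM lie to the right of 0 for 6 genes and to the left for Irf4, while those for media and NRF2 KO CM are all open.

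Irf1, the transcriptional activator that drives much of the interferon gamma response, rose most with CDDO-Me in WT and KEAP1 KO CM. Its TPM were 48.4, 46.7 and 54.2 in the media/vehicle libraries and 59.7, 50.1 and 76.5 in the media/CDDO-Me libraries. In WT CM they were 74.6, 56.8 and 112 with vehicle and 889.5, 915 and 986 with CDDO-Me. The CDDO-Me libraries lay far above every vehicle library. In KEAP1 KO CM the TPM were 66.2, 57.1 and 89.8 with vehicle and 917, 858 and 959 with CDDO-Me. In NRF2 KO CM they were 62.7, 52.5 and 76.5 with vehicle and 69.6, 66.2 and 86.7 with CDDO-Me, so that these groups overlapped. Ordered by mean, WT CM/CDDO-Me (930.0 ± 50.0 TPM) and then KEAP1 KO CM/CDDO-Me (911 ± 50.6 TPM) overlapped each other and stood apart from the other 6 groups, whose libraries lay between 46.7 and 112 TPM and whose neighbours in the order all overlapped. The log2 fold change with CDDO-Me was 3.67 (SE 0.25, adjusted p = 8.5e-10) in WT CM, or 12.7-fold, and 3.86 (adjusted p = 4.3e-10) in KEAP1 KO CM, or 14.5-fold. In control media it was 0.30 with a 95% interval from −0.23 to 0.84.

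Irf2, which competes with IRF1 for its sites and mostly holds them down, rose far less. It was 77.7 ± 6.66 TPM in WT CM/vehicle and 118 ± 8.69 TPM in WT CM/CDDO-Me BMDMs, which is 0.70 on the log2 scale (SE 0.21, adjusted p = 0.015). This call was lost without WT CM/CDDO-Me replicate 3 (log2 fold change 0.65, adjusted p = 0.059) and without WT CM/vehicle replicate 1 (0.63, adjusted p = 0.066). In KEAP1 KO CM it went from 76.3 ± 1.67 to 122 ± 5.58 TPM (log2 fold change 0.84, adjusted p = 0.0042). The 6 CDDO-Me libraries in those media lay between 108 and 126 TPM and the other 18 between 54.6 and 99.0 TPM. The ratio of Irf1 to Irf2 TPM was 0.893 ± 0.0814 (SD, n = 3) in media/vehicle, 1.05 ± 0.349 in WT CM/vehicle, 7.92 ± 0.260 in WT CM/CDDO-Me and 7.49 ± 0.281 in KEAP1 KO CM/CDDO-Me BMDMs. It was 1.17 where NRF2 KO CM was given with CDDO-Me. The Irf1 and Irf2 transcripts were thus near parity in TPM in most groups and far from it with CDDO-Me in WT or KEAP1 KO CM. The proteins were not measured here.

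Irf8, which with PU.1 sets up monocyte and type 1 dendritic cell programs, rose with CDDO-Me in WT and KEAP1 KO CM, where it stood highest of the 8 groups. Its TPM were 159, 142 and 152 in media/vehicle and 129.5, 119 and 119.8 in media/CDDO-Me libraries. In WT CM they were 104, 88.4 and 107 with vehicle and 443, 485 and 486 with CDDO-Me, and in KEAP1 KO CM 92.1, 84.0 and 95.6 with vehicle and 349, 381 and 409 with CDDO-Me. Irf8 was the member with the most separated groups: WT CM/CDDO-Me, then KEAP1 KO CM/CDDO-Me, then media/vehicle and then media/CDDO-Me BMDMs followed each other in that order without overlap. The NRF2 KO CM libraries read 133, 126 and 55.9 TPM with vehicle and 104, 102 and 62.5 TPM with CDDO-Me, with both low values in the libraries that stood apart. The log2 fold change with CDDO-Me was 2.34 (SE 0.19, adjusted p = 1.3e-08) in WT CM and 2.23 (adjusted p = 2.7e-08) in KEAP1 KO CM. In NRF2 KO CM it was −0.16 with all 6 libraries and −0.48 (adjusted p = 0.030) without NRF2 KO CM/vehicle replicate 3. In control media it was −0.29 (95% interval −0.70 to 0.12), and −0.28 (adjusted p = 0.041) once both NRF2 KO CM libraries numbered 3 were left out of the spread that all groups share.

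Because Irf8 and Batf3 define type 1 dendritic cells, markers of dendritic cells were read beside it. The 11 dendritic markers summed to 433 to 504 TPM in media/vehicle, 768 to 839 TPM in WT CM/vehicle and 823 to 961 TPM in WT CM/CDDO-Me libraries. The most abundant were Bst2 (355 TPM on average over the 24 libraries) and Itgax (190 TPM). Bst2 is also among the antiviral effectors below, so that the sum is not a measure of dendritic cells alone. Clec9a, a receptor of type 1 dendritic cells for dead cells, was 0.0793, 0 and 0.497 TPM in WT CM/vehicle and 95.4, 95.5 and 123 TPM in WT CM/CDDO-Me libraries (log2 fold change 6.59, adjusted p = 1.6e-15 by limma). Xcr1, another marker of those cells, was at 2.92 to 4.69 TPM there and at most 0.0450 TPM with vehicle. Flt3, the growth factor receptor of dendritic cells, was at most 0.0111 TPM in WT CM/CDDO-Me libraries, Zbtb46 was at 0.453 to 0.582 TPM and Siglech at most 0.150 TPM. Itgax, which encodes CD11c, fell by 1.89 on the log2 scale (adjusted p = 1.5e-07), and Batf3 went from 53.4 to 26.5 TPM (log2 fold change −0.88, adjusted p = 0.028). Batf3 is not on the list of markers. Of the 7 tested markers that are, Clec9a and Xcr1 were called higher with CDDO-Me in WT CM and Cd209a and Itgax lower. Over all tested genes, 13.9% were called higher and 13.9% lower there. The list thus held members that moved each way, and its part in the Irf8 values was not tested.

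Irf4, which interleukin 4 induces and which drives genes of alternative activation, fell with CDDO-Me in WT and KEAP1 KO CM, where 6 members rose. Its TPM were 0.724, 1.10 and 1.14 in media/vehicle and 0.632, 0.725 and 0.386 in media/CDDO-Me libraries. In WT CM they were 8.83, 8.79 and 18.4 with vehicle and 0.180, 0.201 and 1.19 with CDDO-Me. In KEAP1 KO CM they were 8.85, 8.45 and 11.9 with vehicle and 0.444, 0.166 and 0.207 with CDDO-Me. The 6 libraries with WT or KEAP1 KO CM and vehicle were thus the only ones above 2.01 TPM. In NRF2 KO CM the TPM were 1.35, 0.965 and 2.01 with vehicle and 1.17, 0.556 and 0.592 with CDDO-Me, which overlapped. The log2 fold change with CDDO-Me was −3.05 (SE 0.29, adjusted p = 6.6e-08) in WT CM and −2.98 (adjusted p = 9.3e-08) in KEAP1 KO CM. It was −0.32 (95% interval −0.92 to 0.27) in control media and −0.46 (−1.06 to 0.14) in NRF2 KO CM.

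Irf5, which signals below Toll-like receptors and marks inflammatory macrophages, was the most abundant IRF gene in media/vehicle BMDMs and rose with CDDO-Me in WT and KEAP1 KO CM. It was 158 ± 17.1 TPM in WT CM/vehicle and 344 ± 24.8 TPM in WT CM/CDDO-Me BMDMs (log2 fold change 1.23, SE 0.21, adjusted p = 0.00012), and 140.0 ± 13.2 and 337 ± 24.8 TPM in KEAP1 KO CM (log2 fold change 1.43, adjusted p = 2.0e-05). The 6 CDDO-Me libraries in those media lay between 318 and 372 TPM and the other 18 between 65.9 and 217 TPM, with the lowest value in NRF2 KO CM/vehicle replicate 3. In the order of means, media/vehicle (195 ± 12.0 TPM) also stood above NRF2 KO CM/CDDO-Me (164 ± 18.9 TPM) without overlap. The ratio of Irf4 to Irf5 TPM was 0.00508 ± 0.00126 (SD, n = 3) in media/vehicle, 0.0745 ± 0.0269 in WT CM/vehicle and 0.00145 ± 0.00151 in WT CM/CDDO-Me BMDMs. In NRF2 KO CM/vehicle it was 0.0147 ± 0.0138, and 0.00674 over the other 2 libraries without replicate 3.

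The 2 factors that switch on interferon genes parted. Irf3, which is made at a steady level and acts once phosphorylated, had group means from 81.4 to 94.9 TPM and overlapping neighbours throughout the order. Its log2 fold change with CDDO-Me was 0.05 (95% interval −0.28 to 0.39) in WT CM and 0.15 (−0.19 to 0.48) in KEAP1 KO CM, and without scaling between libraries both values turned negative (−0.06 and −0.02). Its lowest values, 53.5 and 54.2 TPM, were those of the NRF2 KO CM libraries numbered 3.

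Irf7, the amplifier of type I interferon production, which is itself an ISGF3 target, had a low level in media and 2 steps above it. Its TPM were 6.76, 4.99 and 5.45 in media/vehicle and 5.50, 5.38 and 5.48 in media/CDDO-Me libraries. In WT CM they were 17.0, 10.5 and 12.8 with vehicle and 55.0, 46.8 and 70.7 with CDDO-Me. In KEAP1 KO CM they were 13.5, 9.23 and 13.9 with vehicle and 55.3, 57.0 and 74.9 with CDDO-Me. The CDDO-Me libraries in those media lay between 46.8 and 74.9 TPM and all others at or below 17.0 TPM. In NRF2 KO CM the TPM were 9.62, 8.24 and 6.97 with vehicle and 6.42, 7.10 and 6.10 with CDDO-Me. The log2 fold change with CDDO-Me was 2.13 (SE 0.19, adjusted p = 4.4e-08) in WT CM and 2.44 (adjusted p = 6.5e-09) in KEAP1 KO CM, or 4.38-fold and 5.41-fold. The ratio of Irf7 to Irf3 TPM was 0.0607 ± 0.00899 (SD, n = 3) in media/vehicle, 0.157 ± 0.0339 in WT CM/vehicle and 0.713 ± 0.226 in WT CM/CDDO-Me BMDMs.

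Irf9, the DNA-binding part of ISGF3, rose by a small and even amount. It was 45.9, 46.8 and 45.7 TPM in WT CM/CDDO-Me and 46.2, 46.5 and 46.4 TPM in KEAP1 KO CM/CDDO-Me libraries, and between 22.0 and 34.4 TPM in the other 18. The log2 fold change was 0.81 (SE 0.096, adjusted p = 1.5e-06) in WT CM and 0.80 (adjusted p = 1.8e-06) in KEAP1 KO CM. In control media Irf9 went from 28.6 ± 1.80 to 23.6 ± 1.39 TPM (log2 fold change −0.26, adjusted p = 0.13). With the replicate number as a block, which the numbering of that comparison allows, the same −0.26 had an adjusted p of 0.045, and without both NRF2 KO CM libraries numbered 3 it was −0.25 (adjusted p = 0.033).

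**Figure D3:**
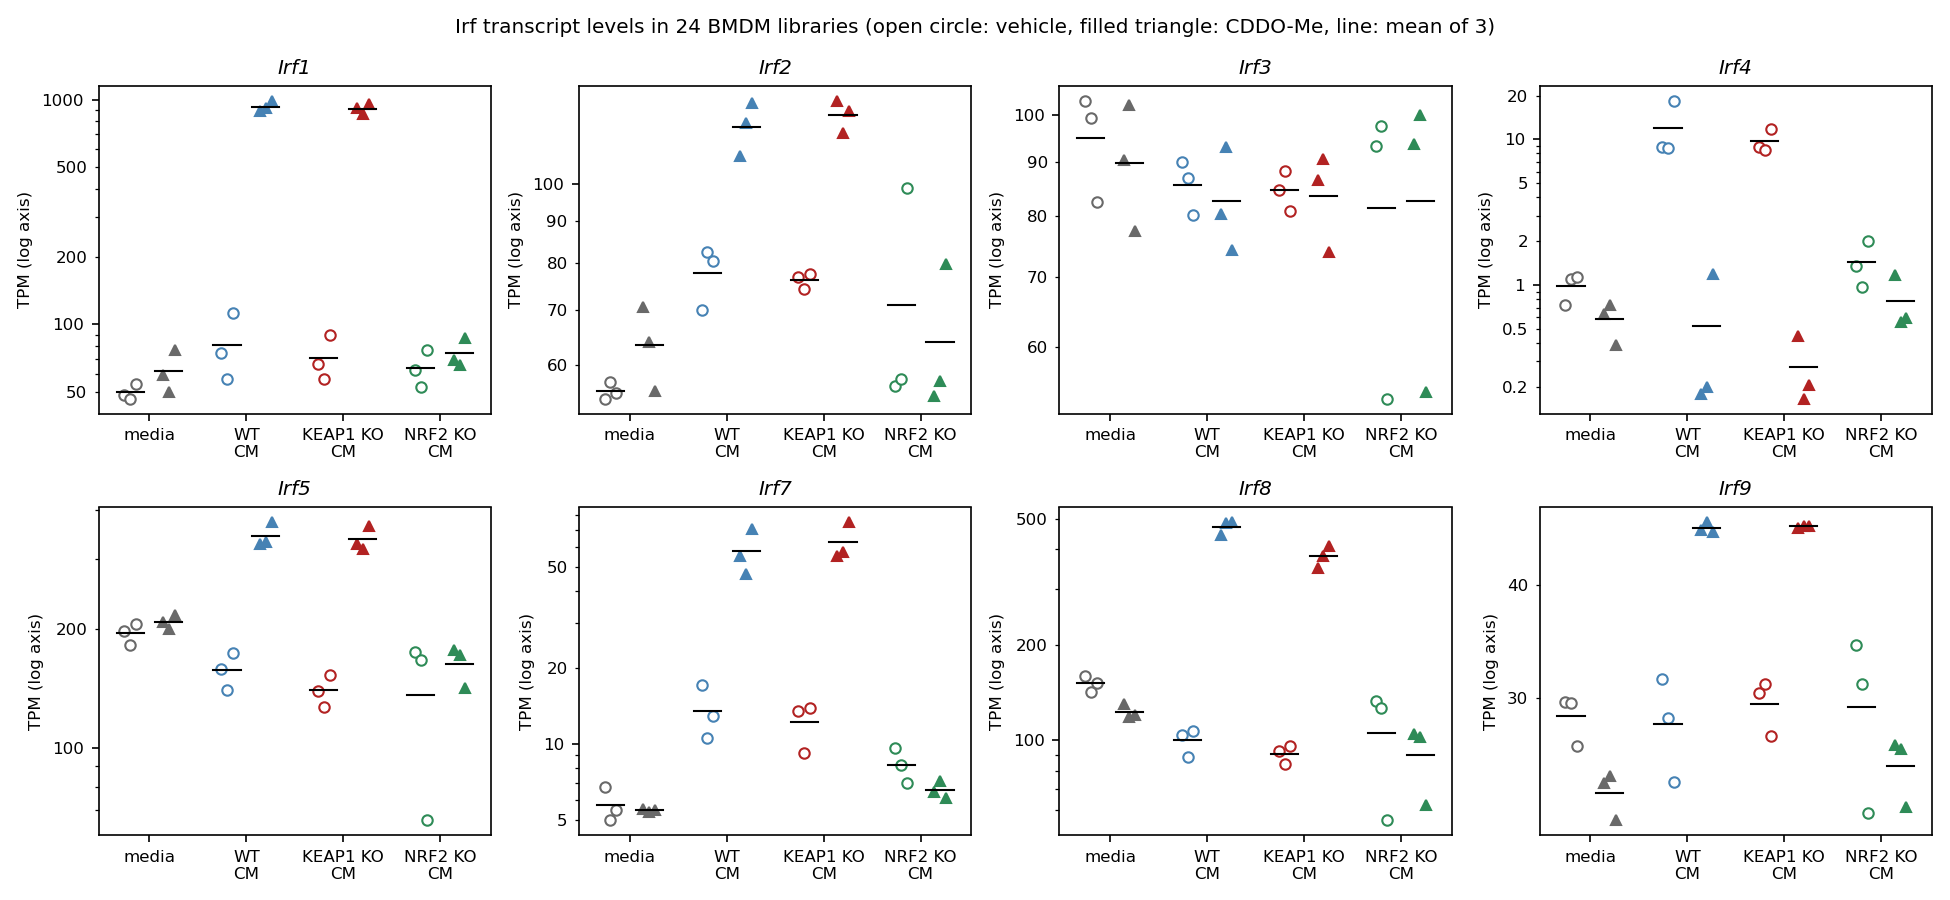
TPM (log axis, with its own range in each panel) of the 8 tested IRF genes in the 4 media; open circles are vehicle libraries, filled triangles CDDO-Me libraries and black lines the means of 3. The WT CM and KEAP1 KO CM triangles stand above all other points for every gene except Irf3, where groups overlap, and Irf4, where the open circles of those media stand highest.

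A difference of the CDDO-Me effect between media was tested as the difference of the log2 fold changes. Against control media, the effect in WT CM differed for 6 of the 8 IRF genes, Irf1, Irf4, Irf5, Irf7, Irf8 and Irf9, where 15% of all tested genes were called in limma, and the effect in KEAP1 KO CM for the same 6 genes, where 14.7% were called. The largest differences for WT CM were 3.37 for Irf1 (SE 0.36, adjusted p = 1.0e-06), −2.72 for Irf4 (adjusted p = 5.8e-05) and 2.64 for Irf8 (adjusted p = 7.5e-07). For Irf2 the difference was 0.52 (adjusted p = 0.31) for WT CM and 0.65 (adjusted p = 0.17) for KEAP1 KO CM, and without both NRF2 KO CM libraries numbered 3 these were 0.55 (adjusted p = 0.00092) and 0.67 (adjusted p = 0.00017). The effect in WT CM also differed from that in NRF2 KO CM for 5 of 8 IRF genes, where 13.3% of all tested genes were called: Irf1, Irf4, Irf7, Irf8 and Irf9, with differences of 3.45, −2.59, 2.42, 2.50 and 1.00. The difference for Irf5 was 0.84 (adjusted p = 0.069), and it was 1.22 (adjusted p = 2.9e-05) without NRF2 KO CM/vehicle replicate 3. Between NRF2 KO CM and media, limma called 0 of the 8 and 0% of all tested genes, with 0 members and 374 genes at an unadjusted p under 0.05. These differences share libraries and are not independent of each other.

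With vehicle, CM from WT cancer cells was compared with control media to ask what the cancer cells' products do alone. In WT CM, Irf4 rose from 0.989 to 12.0 TPM (log2 fold change of scaled TPM + 1 2.67, SE 0.29, adjusted p = 2.7e-06). Irf7 rose from 5.73 to 13.4 TPM (1.14, SE 0.19, adjusted p = 0.00062). They were 2 of 8 members, where limma called 4.33% of all tested genes higher and 3.02% lower (1003 genes in all, and 1734 with the replicate number as a block). Irf1 was 49.7 ± 3.96 TPM in media and 81.0 ± 28.0 TPM in WT CM (log2 fold change 0.71, adjusted p = 0.11). Its adjusted p was 0.0015 with the replicate number as a block, 0.043 (log2 fold change 0.95) without WT CM/vehicle replicate 2, and 0.032 (0.69) without both NRF2 KO CM libraries numbered 3. Irf8 was 151 ± 8.54 TPM in media and 99.7 ± 9.90 TPM in WT CM without overlap (log2 fold change −0.53, adjusted p = 0.12), and its adjusted p was 0.0003 (log2 fold change −0.54) without both NRF2 KO CM libraries numbered 3. In deposited TPM, 6 of 8 members, all but Irf3 and Irf9, did not overlap between WT CM and media, where 35% of all tested genes did not. With KEAP1 KO CM, Irf4 rose to 9.72 TPM (log2 fold change 2.39, adjusted p = 9.8e-06) and Irf7 to 12.2 TPM (0.95, adjusted p = 0.0031). Irf8 fell to 90.5 TPM (log2 fold change −0.74, adjusted p = 0.021). In this comparison limma called 4.65% of all tested genes higher and 3.31% lower. The Irf8 call was lost in 4 of the 6 fits that left out a library, with adjusted p from 0.055 to 0.094. The comparisons of each CM with media share the 3 media/vehicle libraries.

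With NRF2 KO CM, 0 of 8 IRF genes differed from media in limma, where 0.00732% of all tested genes were called and 1659 genes, among them Irf5, Irf7 and Irf8, had an unadjusted p under 0.05. The log2 fold change of Irf4 was 0.30 (95% interval −0.30 to 0.90) and that of Irf7 was 0.48 (adjusted p = 0.41), and without both NRF2 KO CM libraries numbered 3 they were 0.09 (adjusted p = 0.98) and 0.52 (adjusted p = 0.79). WT CM compared directly with NRF2 KO CM, both with vehicle, had higher Irf4 (log2 fold change 2.37, adjusted p = 1.4e-05) and Irf7 (0.66, adjusted p = 0.034), 2 of 8 members where 10.7% of all tested genes were called. The Irf4 call held without either NRF2 KO CM library numbered 3, whereas that of Irf7 was lost without both (adjusted p = 0.068) and without WT CM/vehicle replicate 1 (log2 fold change 0.49, adjusted p = 0.17).

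**Figure D4:**
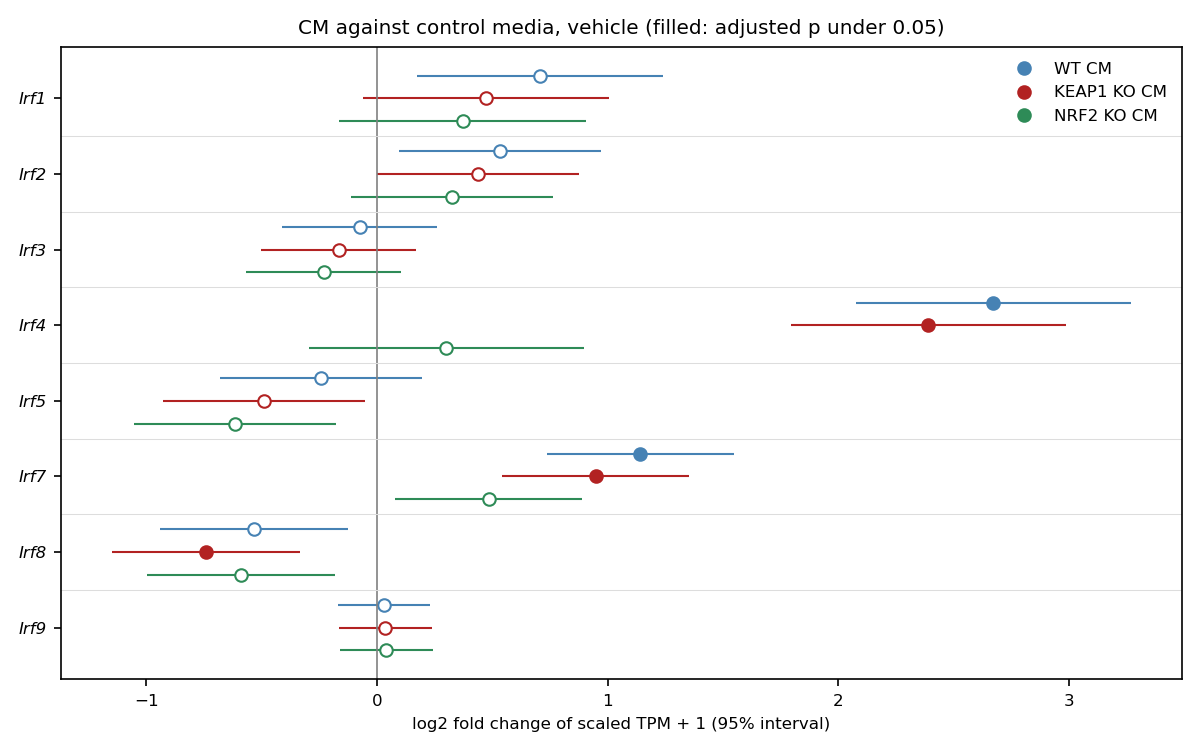
Log2 fold change of scaled TPM + 1 in each CM against control media, all with vehicle (horizontal axis), for the 8 tested IRF genes (vertical axis), with 95% intervals; filled points passed adjusted p under 0.05 by limma. Irf4 stands at 2.67 in WT CM and 2.39 in KEAP1 KO CM but at 0.30 in NRF2 KO CM, and the 3 comparisons share the media/vehicle libraries.

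KEAP1 KO and WT CM did not differ in any IRF gene beyond the threshold. With vehicle, limma called 0 of 8 members and 0% of all tested genes, with 0 members and 341 genes at an unadjusted p under 0.05, and the log2 differences were −0.28 (95% interval −0.88 to 0.32) for Irf4, −0.23 (−0.77 to 0.30) for Irf1 and −0.19 (−0.60 to 0.21) for Irf7. With CDDO-Me, limma called 0 of 8 members (0 at an unadjusted p under 0.05) and 0.0512% of all tested genes, which is 7 genes, or 28 with the replicate block. Irf8 was the member with the widest gap: the 3 KEAP1 KO CM/CDDO-Me libraries, with 379.7 ± 29.8 TPM, all lay below those of WT CM/CDDO-Me, with 471 ± 24.9 TPM (log2 difference −0.33, 95% interval −0.73 to 0.08, adjusted p = 1), and 11.1% of all tested genes had groups that did not overlap in this comparison. The difference between the CDDO-Me effects in the 2 CM was 0.19 (95% interval −0.57 to 0.94) for Irf1 and 0.07 (−0.78 to 0.91) for Irf4, and limma called 0 genes, with 225 at an unadjusted p under 0.05.

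The other genes of the IRF pathways were read from lists of their parts. Counts with CDDO-Me stand beside the 13.9% higher and 13.9% lower of all tested genes in WT CM and the 14.5% and 14.2% in KEAP1 KO CM. In control media 6.01% and in NRF2 KO CM 9.77% of all tested genes were called with CDDO-Me in either direction. At the top, interferon ligand transcripts were almost absent: of 22 listed ligand genes, 14 of 15 Ifna genes were at 0 TPM in all 24 libraries, Ifnb1 was above 0 in 1 library (0.131 TPM) and Ifng in 1 library (0.0637 TPM), and the highest value of any was 0.606 TPM, for Ifnz. Of the 5 tested interferon and receptor genes, the only one called with CDDO-Me in WT CM was Il10rb, a shared subunit of the interleukin 10 and interferon lambda receptors, which fell by 1.23 on the log2 scale (adjusted p = 6.4e-09). Ifngr1 and Ifnar1, which encode the ligand-binding or signalling chains of the gamma and type I receptors, had log2 fold changes of −0.41 (adjusted p = 0.093) and −0.18 (adjusted p = 0.29) there. Of 27 tested sensors, adaptors and kinases that act before IRF3, IRF5 and IRF7, 11 rose and 3 fell in WT CM and 12 rose and 2 fell in KEAP1 KO CM, with list medians of 0.26 and 0.41. Tlr9, which senses DNA in endosomes, rose from 6.39 to 53.9 TPM in WT CM (log2 fold change 3.05), while Tlr7, which senses RNA there, went from 73.9 to 21.5 TPM (−1.66). Sting1, the adaptor of cytosolic DNA sensing, rose from 70.8 to 279 TPM (2.08), and Myd88, the adaptor of most Toll-like receptors, from 55.6 to 138 TPM (1.40). Unc93b1, which carries endosomal Toll-like receptors to their place, rose by a log2 fold change of 0.72 (adjusted p = 0.00087). Of the kinases, Tbk1, which phosphorylates IRF3, had a log2 fold change of 0.42 (adjusted p = 0.40) and Irak1 one of 0.22 (adjusted p = 0.23) in WT CM. Of the other kinases on the list, Irak2 and Chuk were called higher in WT CM, Ikbke lower, and Irak4 and Ikbkb neither. In KEAP1 KO CM, Irak2, Chuk and Ikbkb were called higher and the other kinases were not called.

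Of 12 tested JAK-STAT genes, 9 rose with CDDO-Me in WT CM and 9 in KEAP1 KO CM, with medians of 1.48 and 1.52, against 0 in media and 1 in NRF2 KO CM. Stat2, a partner of IRF9 in ISGF3, rose in WT CM with vehicle already (log2 fold change 0.77 against media, adjusted p = 0.00015) and again with CDDO-Me, from 44.6 to 143.5 TPM (1.78). Socs1, which shuts off JAK signalling, took the same 2 steps, from 0.942 TPM in media/vehicle to 23.7 ± 1.82 TPM in WT CM/vehicle (3.71, adjusted p = 2.4e-10) and 115.7 TPM in WT CM/CDDO-Me BMDMs (2.35). Ptpn6, the phosphatase SHP-1, was lower with WT CM alone (−0.58, adjusted p = 0.014) and rose with CDDO-Me in it (1.97, adjusted p = 1.2e-09). Jak1 and Stat6, the latter the factor below the interleukin 4 receptor, had log2 fold changes of −0.03 (adjusted p = 0.90) and 0.03 (adjusted p = 0.88) with CDDO-Me in WT CM. Of 17 tested DNA-binding partners and co-regulators of IRFs, 5 rose and 4 fell in WT CM and 5 rose and 2 fell in KEAP1 KO CM. Over all tested genes, 13.9% rose and 13.9% fell in WT CM and 14.5% and 14.2% in KEAP1 KO CM. In media 6.01% and in NRF2 KO CM 9.77% were called in either direction. Batf2, which pairs with IRF1, rose from 8.95 to 288 TPM in WT CM (log2 fold change 5.00) and from 6.53 to 335 TPM in KEAP1 KO CM (5.67). Batf3 rose with WT CM alone, from 9.48 to 53.4 TPM (2.43), before the fall with CDDO-Me given above. Irf2bp2, a corepressor named for IRF2, fell by 0.50 on the log2 scale in WT CM (adjusted p = 0.0079). Spi1, which encodes the partner PU.1, had a log2 fold change of 0.27 (adjusted p = 0.68) in WT CM, and Rela, an NF-kB subunit, one of 0.23 (adjusted p = 0.43).

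Genes that IRFs and STATs act on moved with them. Of 29 tested interferon gamma targets, all 29 rose with CDDO-Me in WT CM and all 29 in KEAP1 KO CM, with medians of 4.40 and 4.57, against 0 higher and 3 lower in media and 1 higher and 3 lower in NRF2 KO CM. Over all tested genes, 13.9% rose in WT CM and 14.5% in KEAP1 KO CM. In media 6.01% and in NRF2 KO CM 9.77% were called in either direction. Gbp2, a guanylate-binding protein of cell-autonomous defence, went from 12.2 to 4774 TPM in WT CM (log2 fold change 8.65), and Ciita, the master regulator of MHC class II, from 6.32 to 196 TPM (4.93). The chemokine Cxcl9 was 1410 ± 408 TPM in WT CM/CDDO-Me and 1227 ± 472 TPM in KEAP1 KO CM/CDDO-Me BMDMs, and Cxcl10 was 349.6 TPM in the first and 793 ± 547 TPM in the second. Of 29 tested antiviral effectors of the type I response, 26 rose in WT CM and 27 in KEAP1 KO CM, with medians of 2.25 and 2.35, against 1 higher and 1 lower in media and 0 higher and 5 lower in NRF2 KO CM, where the median was −0.34. Isg15, a ubiquitin-like modifier, rose from 10.1 to 115 TPM in WT CM (3.50), and Zbp1, a sensor of Z-form nucleic acids, from 21.9 to 346 TPM (4.10). Of 16 tested alternative activation genes, 14 rose with WT CM and 14 with KEAP1 KO CM under vehicle. In those 2 comparisons with media, 4.33% and 4.65% of all tested genes were called higher. With CDDO-Me, 13 of the 16 fell and 1 (Il4ra, the interleukin 4 receptor chain) rose in WT CM, and 14 fell and 2 (Il4ra and Kdm6b, a histone demethylase) rose in KEAP1 KO CM, with medians of −1.80 and −1.70. Il4ra thus rose in both steps, and Pparg, a nuclear receptor of lipid metabolism, was among those that fell with CDDO-Me but was not called with either CM alone. Arg1, the arginase of alternatively activated macrophages, was 663 ± 112 TPM in WT CM/vehicle and 1001 ± 104 TPM in KEAP1 KO CM/vehicle BMDMs and at most 1.29 TPM in any library of the other 6 groups. Retnla was 2335 TPM in WT CM/vehicle BMDMs and listed at 0 in the media/vehicle and the WT CM/CDDO-Me libraries, and Mrc1, the mannose receptor, rose from 169.8 to 1171 TPM with WT CM and was 61.5 TPM with CDDO-Me added (log2 fold change −4.14). The lists were chosen with earlier results of these libraries known, so that these counts are not independent evidence of a direction.

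**Figure D5:**
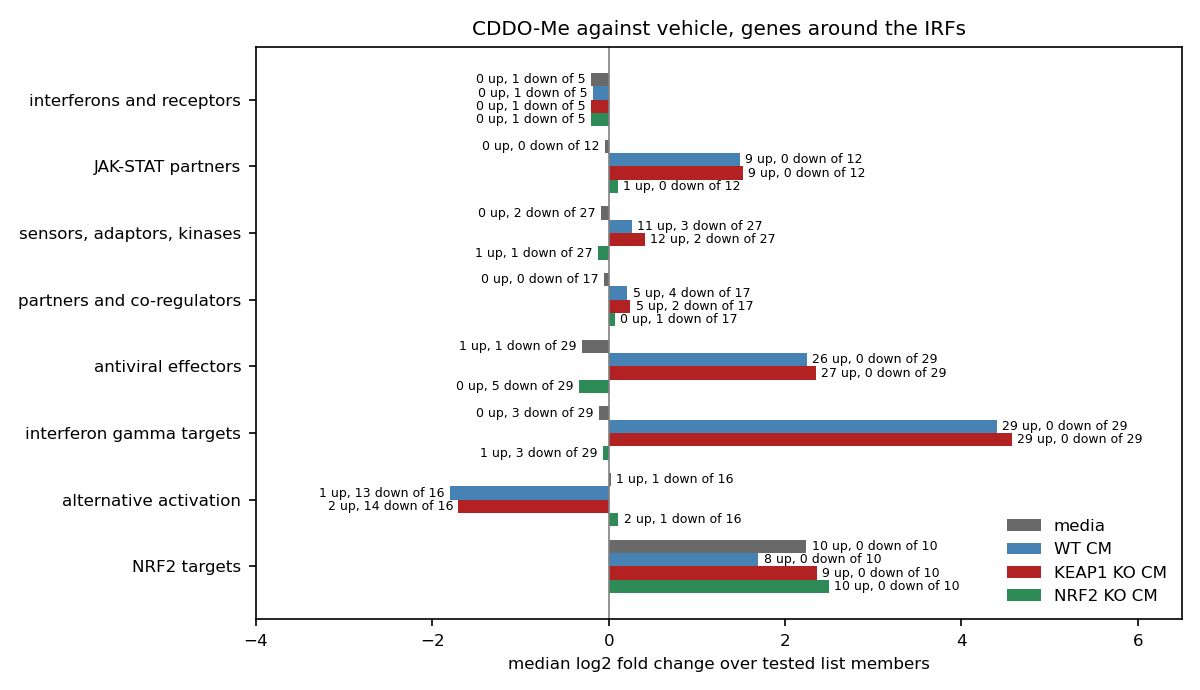
Median log2 fold change with CDDO-Me against vehicle for 8 gene lists around the IRFs in the 4 media, with the number of genes called higher and lower beside each bar. The interferon gamma targets stand at 4.40 and 4.57 in WT CM and KEAP1 KO CM and at −0.11 and −0.07 in media and NRF2 KO CM, while NRF2 targets stand above 0 in all 4.

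The genes whose pattern was most like each member were found by Pearson's r of log2 values over the 24 libraries, among 10055 genes. As all libraries share one set of groups, r describes mostly the 8 group levels. Irf1 was nearest to Gbp6 (r = 0.994), Batf2 (0.994) and Gbp7 (0.993), of which Batf2 and the guanylate-binding proteins are themselves known for induction by interferon gamma. Irf7 was nearest to Stat2 (0.990), Ifi47 (0.984) and Zbp1 (0.983), and Irf9 to Tgtp2 (0.976), Isg15 (0.973) and Wars1 (0.971). Irf8 was nearest to Rab43 (0.985), Tmem140 (0.979) and Znfx1 (0.975). Irf5 was nearest to Mafk (0.985), which encodes a small MAF protein, a partner of NRF2, and to Ppt2 (0.972) and Smim29 (0.968). Irf4 was nearest to Prps1 (0.974), Il4i1 (0.966), an amino acid oxidase induced by interleukin 4, and Tbc1d4 (0.966). Irf2 (at most 0.959, Ccdc25) and Irf3 (at most 0.927, Faap20) had the loosest neighbours.

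Among the members, Irf1 and Irf7 had r = 0.96 over the 24 libraries and Irf5 and Irf8 r = 0.94. Once each library was taken relative to its group mean, r was 0.91 for Irf5 and Irf8, −0.85 for Irf2 and Irf3 and −0.79 for Irf2 and Irf8. Over the 22 libraries other than the NRF2 KO CM ones numbered 3, these became 0.89, −0.27 and 0.29, so that the last changed sign. The NRF2 KO CM libraries numbered 3, in which Irf2 was high and Irf3, Irf5 and Irf8 were low, were those left out, and Irf2 read 99.0 TPM in that vehicle library against 56.5 and 57.7 TPM in the other 2 of its group.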

How the data were processed

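RNA was measured by poly-A RNA-seq in 24 BMDM libraries, grouped from the labels. The authors quantified reads against GRCm39 transcripts with Kallisto and deposited length-scaled TPM per gene name, with replicates kept apart. The depth of each library and the strand setting are not given in the sources used here, and exons of Irf1, Irf2, Irf3, Irf5, Irf7 and Irf9 overlap those of other genes, so that reads there could be shared. A line without a gene name (0.0199% to 0.0635% of TPM) was left out.

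Genes above 1 TPM in at least 3 libraries were kept. TPM were divided by unweighted trimmed-mean-of-M-values factors (trims of 30% and 5%) and analysed as log2(TPM + 1) in limma 3.58.1 (R 4.3.3), with 8 group means, a mean-variance trend and 16 residual degrees of freedom. Two-sided p-values were adjusted by Benjamini-Hochberg over all tested genes of a comparison, and genes were called at an adjusted p under 0.05. As the values are TPM, no count test was run. The fit was tested on simulated data with independent noise in each gene and library. That simulation held neither the pairing of same-numbered libraries nor libraries that stood apart. Promoters were read with pysam 0.24.0 under Python 3.11.15, and figures drawn with matplotlib 3.10.9.

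All IRF genes were described, with the 3 genes of at least 5 TPM on average whose log2 levels had the highest Pearson's r with each. Other genes named are up to 4 most abundant members of each list and a fixed set of interferon, STAT and NRF2 genes. Outside that rule, Socs1, Batf3, Tlr7, Tlr9, Myd88, Irak2, Irak4, Ikbke, Chuk, Ikbkb, Flt3, Xcr1, Zbtb46, Siglech, Cd209a, Il4ra, Kdm6b and Pparg were chosen after their values were seen. Members and lists were chosen with earlier results of these data known.

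The correlation of deviations between same-numbered libraries was positive for every pair in all 15 comparisons, and the main fit leaves this pairing out. Every pair was above 0.1 in 5 of the 15. Among these were WT CM against media with vehicle (0.14 to 0.39) and CDDO-Me in media (0.16 to 0.45) and in NRF2 KO CM (0.50 to 0.72). Fits of those 5 with the replicate number as a block are given beside results they change. In the other comparisons the lowest pair lay between 0.022 and 0.097. For CDDO-Me the pairs ran from 0.062 to 0.37 in WT CM and from 0.094 to 0.42 in KEAP1 KO CM. Alternatives were another scaling and none, other filters and pseudocounts, no trend, only the groups compared, a block, and leaving out single libraries or both NRF2 KO CM libraries numbered 3, the last chosen after seeing the data. Certain items are not reported here.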

Additional observations from a re-analysis of the deposited data

Results flagged for a closer look

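The results singled out here are those in which the CDDO-Me effect of an IRF gene differed between media by the interaction test of limma, as log2 differences. For WT CM minus control media, the difference was 3.37 for Irf1, −2.72 for Irf4, 1.13 for Irf5 (adjusted p = 0.012), 2.18 for Irf7, 2.64 for Irf8 and 1.08 for Irf9. For KEAP1 KO CM minus control media, it was 3.56 for Irf1, −2.66 for Irf4, 1.34 for Irf5 (adjusted p = 0.0033), 2.48 for Irf7, 2.52 for Irf8 and 1.06 for Irf9. For WT CM minus NRF2 KO CM, it was 3.45 for Irf1, −2.59 for Irf4, 2.42 for Irf7, 2.50 for Irf8 and 1.00 for Irf9. In each of these, the effect in WT or KEAP1 KO CM was past the threshold and the effect in the other medium was not. Groups of 3 libraries were not tested for outlying samples.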

How the results depend on the processing

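Without reads, depth cannot bound low values such as those of Irf4, and with 3 libraries a group single libraries carry weight. Every IRF gene called with CDDO-Me in WT or KEAP1 KO CM kept its direction under every alternative run in which it was tested. Among the IRF log2 fold changes quoted in the report, 564 refits that left out no single library kept direction and side of the threshold, 13 passed it newly, 5 lost it and 4 changed sign; of those that left out 1 library, 465 kept both, 4 passed it newly, 10 lost it and 13 changed sign. Where the cause of a change is not given by the alternative's own construction, the cause was not tested.

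The changes of sign were small and uncalled. For the difference of the Irf4 effect between KEAP1 KO and WT CM the value was −0.14 with a pseudocount of 0.1 and −0.0056 with one of 0.5, and for Irf3 without scaling the CDDO-Me effect was −0.022 in KEAP1 KO CM and −0.057 in WT CM. Irf8 in KEAP1 KO CM against media lost its call without the filter (−0.73, adjusted p = 0.064 in limma) and without scaling (−0.73, adjusted p = 0.058). Irf7 in WT against NRF2 KO CM lost it without the filter (0.69, adjusted p = 0.055) and with only those groups fitted (0.65, adjusted p = 0.26).

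The number of IRF genes called went to 1 for WT CM against media and for WT against NRF2 KO CM with a mean of at least 5 TPM, which removes Irf4 from the test, and to 1 for the latter without a filter. With only the groups compared against media it was 5 with KEAP1 KO CM and 4 with WT CM, and it was 1 for WT against NRF2 KO CM. Without both NRF2 KO CM libraries numbered 3 it was 5 with either KEAP1 KO CM or WT CM against media and 2 for CDDO-Me in media.

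Counts over all tested genes moved by more than 1.5 times as follows. For KEAP1 KO against WT CM with CDDO-Me, limma called 7 genes, and 0 with a mean of at least 5 TPM or with only those groups, 19 without a filter, 11 without a trend, 3 with a pseudocount of 0.1 and 4 with one of 0.5. For NRF2 KO CM against media it called 1 gene, and 2 without a filter and 0 without scaling or with only those groups. Without a filter, 1 gene was called for KEAP1 KO against WT CM with vehicle and 1 for the effect in NRF2 KO CM minus media. With only the groups compared, 2186 genes were called with KEAP1 KO CM and 2044 with WT CM against media, 162 for WT against NRF2 KO CM, 1606 for CDDO-Me in media and 142 in NRF2 KO CM, and, for differences of effects, 3684 for WT CM minus media, 3450 for KEAP1 KO CM minus media and 1133 for WT minus NRF2 KO CM. The last set of libraries left out, both NRF2 KO CM libraries numbered 3, gave 2951 genes with KEAP1 KO CM, 2595 with WT CM and 0 with NRF2 KO CM against media, 2118 for CDDO-Me in media, 5926 and 6145 for CDDO-Me in WT and KEAP1 KO CM, 48 for KEAP1 KO against WT CM with CDDO-Me, and 3916, 4040 and 2949 for the effects in WT CM minus media, KEAP1 KO CM minus media and WT minus NRF2 KO CM.

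Under the replicate block, the genes called were 1770 with KEAP1 KO CM, 1734 with WT CM and 4 with NRF2 KO CM against media, 2568 for WT against NRF2 KO CM, 1466 for CDDO-Me in media, where 1 IRF gene, Irf9, was called, and 28 for KEAP1 KO against WT CM with CDDO-Me. The block changed no other call of a quoted IRF value than those of Irf1 in WT CM and Irf9 in media.

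Leaving out 1 library gave 606 to 723 genes called for WT CM against media, 666 to 873 for KEAP1 KO CM, 0 to 2 for NRF2 KO CM, 805 to 2431 for WT against NRF2 KO CM, 516 to 605 for CDDO-Me in media, 0 to 1 and 2 to 25 for KEAP1 KO against WT CM with vehicle and with CDDO-Me, and 0 to 1 for the effects in KEAP1 KO minus WT CM and NRF2 KO CM minus media. IRF genes called ranged from 0 to 2 for CDDO-Me in NRF2 KO CM, where Irf8 and Irf9 (−0.28, adjusted p = 0.042) were called without NRF2 KO CM/vehicle replicate 3, and from 1 to 2 for WT against NRF2 KO CM. The Irf8 call in KEAP1 KO CM against media was lost without KEAP1 KO CM/vehicle replicate 1 or 2 or media/vehicle replicate 1 or 3 (log2 fold changes over all libraries left out −0.81 to −0.67), and that of Irf7 in WT against NRF2 KO CM without NRF2 KO CM/vehicle replicate 2 (adjusted p = 0.071) or 3 (0.088) or WT CM/vehicle replicate 1 (0.17) or 3 (0.095). Signs changed within −0.48 to 0.046 for Irf8 with CDDO-Me in NRF2 KO CM, −0.021 to 0.12 for Irf3 in WT CM, −0.48 to 0.047, −0.46 to 0.068 and −0.36 to 0.015 for Irf1, Irf4 and Irf7 in KEAP1 KO against WT CM, and −0.090 to 0.43 and −0.28 to 0.38 for the differences of the Irf1 and Irf4 effects between them.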
